A study of Mus musculus with 13 samples.

Results

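The Dlk1-Meg3 domain of mouse chromosome 12 was followed through 4 of the 24470 genes in the count table, taken by symbol: Meg3, Rian, Mirg and Dlk1. Open chromatin was read from every listed ATAC peak in a window from 50 kb before Dlk1 to 50 kb beyond Mirg (mm10 chr12:109402823-109799458, 396.6 kb). The members were chosen by their counts in experiment 1, where Meg3, Rian and Mirg were nearly lost. Their difference between experiments is therefore described and not tested.

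All samples were E14 mouse embryonic stem cells, a line of 129/Ola background, grown in serum with leukemia inhibitory factor. No sample was treated or genetically altered according to the labels. In the low-input protocol the transposase Tn5 cut open chromatin in permeabilized cells, and oligo-dT beads then captured mRNA from the same lysate. Each input gave an ATAC and an mRNA library: 10000 and 20000 cells in experiment 1, and 5000, 10000 and 20000 cells in experiment 2, which the series' design text places on another day. Omni-ATAC, an established protocol without an mRNA layer, was run on 5000, 10000 and 50000 cells, with 1 library each. The Omni-ATAC labels give no experiment number, so these lists cannot be assigned to experiment 1 or 2 by label. The day is not replicated, and no label says whether the libraries of a day came from separate cultures, so any p-value measures the spread between libraries that may be technical.

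The domain is imprinted: the copy inherited from the mother and the copy from the father are used differently. Meg3, Rian and Mirg are long noncoding RNA genes transcribed from the maternal copy, and Rian and Mirg carry small nucleolar RNAs and microRNAs within them. Dlk1, which encodes a transmembrane protein of the Delta and Notch family, and the neighbouring Rtl1 and Dio3 are expressed mainly from the paternal copy. A region between Dlk1 and Meg3 that is methylated on the paternal copy controls the domain. Silencing of the maternal RNAs is well known in some mouse pluripotent stem cell lines. DNA methylation and allele of origin were not measured in this series.

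The total count per mRNA library ran from 13727122 to 20426252, so 3 counts, the limit that a count of 0 allows, corresponded to 0.147 to 0.219 CPM (the count divided by the total of its library, scaled to 1000000). The ATAC lists held 9097 to 95457 peaks and give neither height nor read depth. The 10 embryonic stem cell markers summed to 3303.5 and 3417.5 CPM in experiment 1 and to between 3312.1 and 3341.3 CPM in experiment 2 and were present in every library. Of the 10, Klf4 (0.42) and Zfp42 (0.38) were called higher and Utf1 (-0.57) lower in experiment 2 on the log2 scale (edgeR, 30.0% called against 12.5% of all genes). Zfp42 is a gene of chromosome 8, where the median over 692 tested genes was 0.46. The part of that chromosome in the Zfp42 change was not tested. Eif2s3y, a Y-linked gene, had 0 counts in both experiment 1 libraries and 132, 190 and 230 in experiment 2 with 5000, 10000 and 20000 cells. All 5 tested genes placed on the Y chromosome had a higher value in experiment 2 (median log2 fold change 8.73). The 51 Y rows still summed to 143.1 and 150.7 CPM in experiment 1 and to 200.5 to 241.0 CPM in experiment 2, in experiment 1 all of it from Erdr1, a gene of the region shared with the X chromosome. Whether both experiments used the same subline is not given in the sources used here.

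The stretches around the annotated starts of the 4 members, called promoters here, are shown as a description. Whether transcription begins at each of these starts was not measured, and their part in the differences was not tested. Each stretch runs from 250 bases before to 50 bases after the start (RefSeq, GRCm38.p6, plus strand, 5′ to 3′), and all 4 members were matched. Meg3 has 2 starts in that set, and the stretch shown covers the one in the count table. Capitals mark matches on either strand to TGCCGC (the hexamer read by Zfp57 when methylated), TGACGTCA (the cyclic AMP response element), TATAAA (a core promoter element), GGGCGG (an element bound by Sp1) or CCAAT. Meg3 lies at chr12:109540746-109541045, Rian at chr12:109603695-109603994, Mirg at chr12:109734731-109735030 and Dlk1 at chr12:109452573-109452872.
Meg3 promoter: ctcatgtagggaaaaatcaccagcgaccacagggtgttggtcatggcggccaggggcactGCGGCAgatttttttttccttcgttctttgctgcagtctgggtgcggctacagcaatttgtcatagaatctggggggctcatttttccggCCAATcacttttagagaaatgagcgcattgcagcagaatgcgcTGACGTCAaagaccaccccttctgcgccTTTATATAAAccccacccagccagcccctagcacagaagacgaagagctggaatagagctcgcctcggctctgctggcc
Rian promoter: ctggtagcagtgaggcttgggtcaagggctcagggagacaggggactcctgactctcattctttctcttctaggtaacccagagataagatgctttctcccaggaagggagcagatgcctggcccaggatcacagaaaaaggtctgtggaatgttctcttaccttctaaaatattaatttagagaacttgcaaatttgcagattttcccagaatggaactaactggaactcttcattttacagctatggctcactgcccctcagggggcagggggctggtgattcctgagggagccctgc
Mirg promoter: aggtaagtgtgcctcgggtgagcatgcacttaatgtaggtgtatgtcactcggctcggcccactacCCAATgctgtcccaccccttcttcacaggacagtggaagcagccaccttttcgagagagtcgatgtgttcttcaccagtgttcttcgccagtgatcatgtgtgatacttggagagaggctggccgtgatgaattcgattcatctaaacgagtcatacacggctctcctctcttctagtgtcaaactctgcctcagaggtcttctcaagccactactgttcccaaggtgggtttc
Dlk1 promoter: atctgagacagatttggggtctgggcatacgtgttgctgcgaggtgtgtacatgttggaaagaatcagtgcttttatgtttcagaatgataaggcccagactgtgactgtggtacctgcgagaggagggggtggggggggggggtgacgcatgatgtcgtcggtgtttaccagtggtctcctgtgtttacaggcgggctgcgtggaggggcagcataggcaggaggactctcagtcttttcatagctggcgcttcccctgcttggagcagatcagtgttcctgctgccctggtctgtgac

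The Meg3 stretch holds 1 match to TGACGTCA, which 1.79% of 32851 promoters of the same length hold, and TATAAA on both strands in overlapping letters. TATAAA at least once on either strand is in 13.6% of promoters. It also has 1 match to TGCCGC (11.6% of promoters) and 1 to CCAAT (37.4%). The Mirg stretch has 1 CCAAT, and the Rian and Dlk1 stretches have none of these letters. GGGCGG, found in 35.7% of promoters, is in none of the 4. CpG dinucleotides number 13 in the Meg3 stretch, 10 in Mirg, 9 in Dlk1 and 0 in Rian, against a median of 7 over all promoters.

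Meg3, Rian and Mirg had higher levels in every experiment 2 library than in any experiment 1 library, an order that 17.7% of genes tested between experiments shared. Meg3 had 18 counts (1.31 CPM) with 10000 cells and 19 counts (1.27 CPM) with 20000 cells in experiment 1. In experiment 2 it had 310 counts (18.5 CPM) with 5000 cells, 343 (22.1 CPM) with 10000 and 528 (25.8 CPM) with 20000. The experiment 1 libraries lay close to each other and far below all of experiment 2.

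Rian, the host of a large cluster of small nucleolar RNAs, was almost absent from experiment 1. It had 0 counts with 10000 cells, which allows up to 0.219 CPM, and 1 count with 20000 cells (0.0669 CPM). The experiment 2 libraries had 57 counts (3.40 CPM) with 5000 cells, 113 (7.29 CPM) with 10000 and 165 (8.08 CPM) with 20000. Within experiment 2 the library from 5000 cells was the lowest, with a 95% exact interval of 2.58 to 4.41 CPM that did not meet that of the library from 10000 cells (6.01 to 8.76 CPM). All such intervals cover only the error of counting, as these reads carry no molecular identifiers and may repeat a molecule.

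Mirg, which carries microRNAs of the distal cluster, had 5 counts (0.364 CPM) and 2 counts (0.134 CPM) with 10000 and 20000 cells in experiment 1. In experiment 2 it had 85 counts (5.07 CPM) with 5000 cells, 72 (4.64 CPM) with 10000 and 109 (5.34 CPM) with 20000. Its experiment 2 values had overlapping counting intervals, from 3.63 to 6.44 CPM in all, so no order among them could be read.

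**Figure D1:**
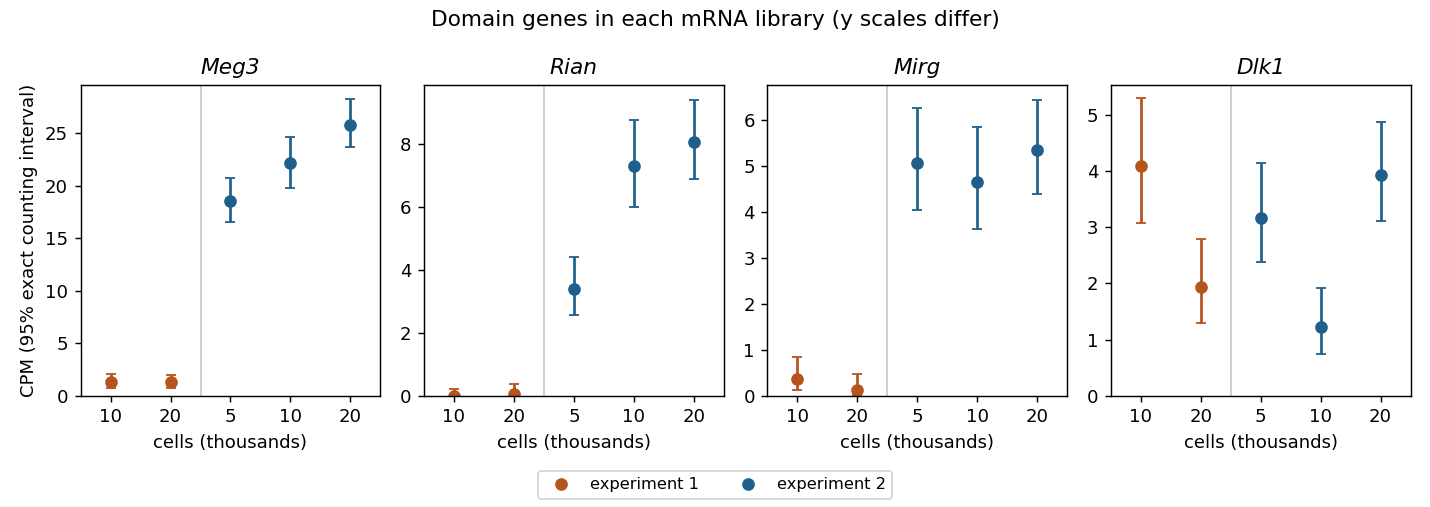
CPM (y axis, from 0, a scale per panel) of Meg3, Rian, Mirg and Dlk1 in the 5 mRNA libraries, by cell number (x axis) and experiment (colour); bars are 95% exact counting intervals of single libraries, and the bar of a count of 0 ends at 3 counts. Meg3, Rian and Mirg separate the experiments, and Dlk1, between 1.23 and 4.08 CPM, does not.

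Over the libraries from 10000 and 20000 cells, Meg3 averaged 1.29 ± 0.0282 CPM in experiment 1 and 24.0 ± 2.64 CPM in experiment 2 (SD, n = 2 each). Its log2 fold change by edgeR was 4.21 ± 0.29 (SE). For Mirg the means were 0.249 ± 0.163 and 4.99 ± 0.490 CPM, with a log2 fold change of 4.30 ± 0.64. Rian averaged 0.0335 ± 0.0473 and 7.68 ± 0.559 CPM. As experiment 1 had only 1 Rian count against 278, its ratio of 221.8 had a 95% exact counting interval from 39.5 to 8792.7, and the fitted log2 fold change of 7.50 ± 0.73 depends on the prior count. The ratios of summed counts were 18.8 for Meg3 (13.5 to 26.9) and 20.6 for Mirg (9.81 to 52.0).

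Among 12523 genes tested between experiments, ordered by log2 fold change, Rian was in place 7, Mirg in place 15 and Meg3 in place 18. In that comparison 12.5% of all genes were called at an adjusted p under 0.05 (edgeR), 5.75% higher and 6.76% lower in experiment 2. That share depends on the libraries: 1567 genes were called in all, 803 of 13179 without the 10000-cell library of experiment 2, 869 of 13510 without its 20000-cell library and 1018 of 13456 without the 10000-cell library of experiment 1. On chromosome 12 outside the window the median log2 fold change was 0.02. All 4 members passed the filter on low counts, but Rian and Mirg did so only through the experiment 2 libraries. These are bulk samples, in which fewer cells using the maternal RNAs and less RNA in each cell cannot be told apart.

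The 3 RNAs were also compared with each other within each library, as shares of their summed counts (Wilson 95% intervals). These are shares of counts and not of molecules, since the values are not per length. Meg3 gave 68.6% of the counts with 5000 cells in experiment 2 (64.2% to 72.7%), 65.0% with 10000 (60.8% to 68.9%) and 65.8% with 20000 (62.5% to 69.0%). Rian gave 21.4% with 10000 cells (18.1% to 25.1%) and 20.6% with 20000 (17.9% to 23.5%), but 12.6% with 5000 (9.86% to 16.0%). The interval of the Rian share in the smallest input did not meet those of the larger inputs of experiment 2. These intervals take each read as a separate molecule, and the lower share rests on 1 library. In experiment 1 only 23 and 22 counts were left to divide, of which Meg3 had 78.3% (58.1% to 90.3%) and 86.4% (66.7% to 95.3%).

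The small RNAs of the domain were scarcely seen, in libraries made by oligo-dT capture. Of 60 microRNA rows in the window, 5 had a count in any library, 15 counts in all. Of 7 small nucleolar RNA rows, 2 had a count, the larger being AF357425, within Rian, with 12 counts in the experiment 2 library from 5000 cells, 4 in that from 20000 cells and 0 in the other 3 libraries. Mature microRNAs are not polyadenylated, so these rows do not measure them.

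RefSeq places 10 microRNA hairpins within Mirg, 3 within Rian and 1 within Meg3, of 57 in the window. The 112 mature arms of the window, counted by name and position, have 102 different seeds (bases 2 to 8). Of these seeds, 9 are shared by a pair of arms with different names. An arm name found at several positions was not counted as a pair. The pairs with an arm inside Rian or Mirg are shown, because these arms lie in RNAs that were near absent from experiment 1; capitals mark the seed, 5′ to 3′. The first pair joins Rian to the cluster before Mirg, the second lies wholly within Mirg, and the third again joins Mirg to that cluster.
miR-370-5p (in Rian): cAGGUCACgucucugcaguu
miR-1193-3p: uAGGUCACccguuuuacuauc
miR-453 (in Mirg): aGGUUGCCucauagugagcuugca
miR-496a-5p (in Mirg): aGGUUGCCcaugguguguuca
miR-410-5p (in Mirg): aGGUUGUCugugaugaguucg
miR-494-5p: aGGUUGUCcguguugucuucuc

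Dlk1 did not separate the experiments. It had 56 counts (4.08 CPM) with 10000 cells and 29 counts (1.94 CPM) with 20000 cells in experiment 1. In experiment 2 it had 53 counts (3.16 CPM), 19 (1.23 CPM) and 80 (3.92 CPM) with 5000, 10000 and 20000 cells. The lowest and the second highest value both fell in experiment 2, and the groups overlapped. Means were 3.01 ± 1.51 CPM in experiment 1 and 2.57 ± 1.90 CPM in experiment 2 (SD, n = 2), a log2 fold change of -0.21 ± 0.55. Ordered by level, the libraries ran from experiment 2 with 10000 cells through experiment 1 with 20000, experiment 2 with 5000 and experiment 2 with 20000 to experiment 1 with 10000 cells. Neighbours in that order had overlapping counting intervals.

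The other paternally expressed genes were at or near 0. Rtl1, a retrotransposon-derived gene that lies antisense to transcripts of the maternal copy, had 4 and 0 counts in experiment 1 (10000, then 20000 cells) and 6, 5 and 2 counts in experiment 2 (5000, 10000 and 20000 cells). Whether the counting used strand is not given in the sources used here, so Rtl1 reads and reads of the opposite strand cannot be told apart. Dio3, which encodes a deiodinase that inactivates thyroid hormone, had 5 counts in the experiment 1 library from 20000 cells, 2 in the experiment 2 library from 10000 cells and 0 in the others.

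Cell number was compared next, a contrast on which the members were not chosen; it uses the same 4 libraries as the contrast of experiments. None of the 4 members was called at 20000 against 10000 cells by edgeR, and 0.0% of 12523 genes were (101 had an unadjusted p under 0.05, and DESeq2 also called 0). Meg3 averaged 11.7 ± 14.7 CPM with 10000 cells and 13.6 ± 17.4 CPM with 20000 (SD, n = 2), with a log2 fold change of 0.19 ± 1.39 (SE, edgeR adjusted p = 0.999). The log2 fold changes were 0.14 ± 1.85 for Rian, 0.11 ± 1.46 for Mirg and 0.14 ± 0.71 for Dlk1 (edgeR adjusted p = 0.999 for each). Each group holds 1 library of each experiment, and the SDs of Meg3 exceed its means. With the experiment as a replicate block, 4 genes were called (0.0319%), none of them a member, and the Meg3 change was 0.13 ± 0.28.

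**Figure D2:**
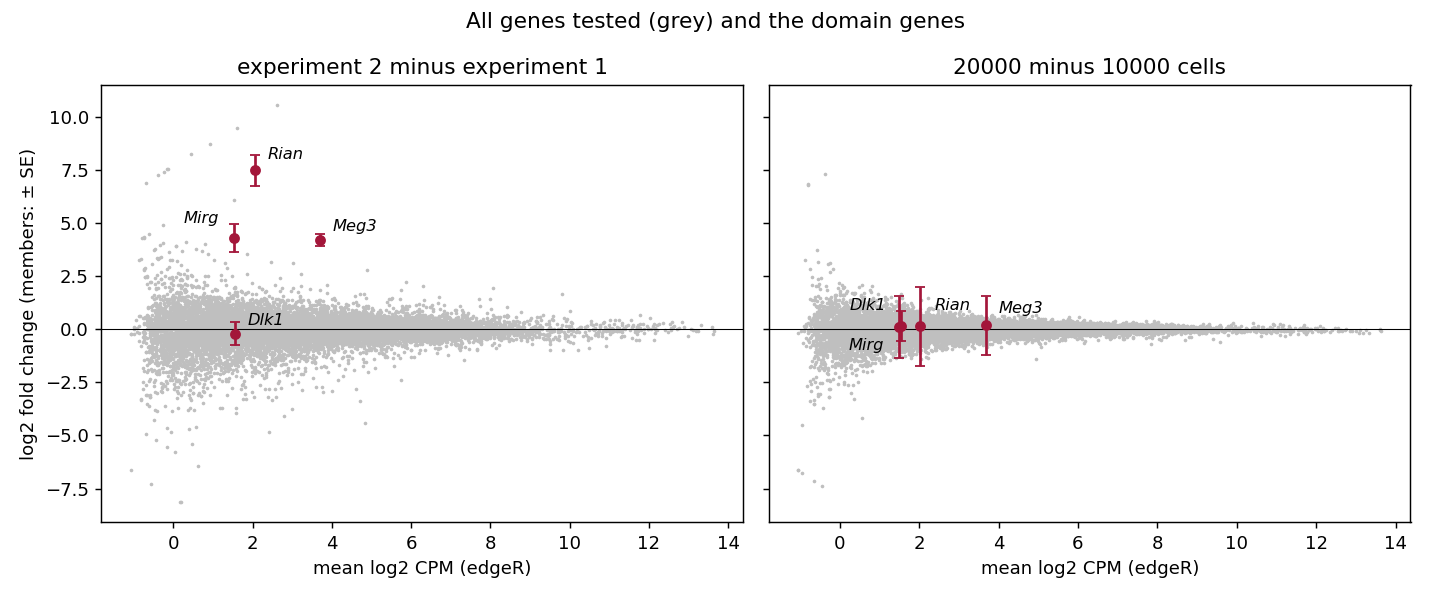
Log2 fold change (y axis) against mean log2 CPM (x axis) of all 12523 genes tested (grey) and the 4 members (red, bars ± SE), for experiment 2 minus experiment 1 (left) and 20000 minus 10000 cells (right), from the same 4 libraries. Meg3, Mirg and Rian stand at 4.21, 4.30 and 7.50 on the left, and all 4 members lie between 0.11 and 0.19 on the right.

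Most genes around the domain had too few counts to be compared. Within 500 kb of the window only Begain, a gene on the Dlk1 side that encodes a synaptic protein, and Wdr25 had enough counts to be tested between experiments. Begain (0.59 ± 0.88, edgeR adjusted p = 0.739) and Wdr25 (-0.47 ± 0.43, edgeR adjusted p = 0.549) were not called. On the Mirg side 0 of 4 genes could be tested. On chromosome 12 outside the window 9.18% of 425 genes were called (16 higher and 23 lower), against 12.5% of all genes tested.

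Of 21 genes that write, read or protect imprints, 3 were higher and 2 lower in experiment 2 by edgeR, 23.8% against 12.5% of all genes, and their median log2 fold change was -0.06. Dppa3, a maternal factor that protects DNA methylation in the early embryo, rose most: it had 0.947 and 1.14 CPM in experiment 1 and 14.9, 7.42 and 11.5 CPM in experiment 2 with 5000, 10000 and 20000 cells. Its groups did not overlap, and its log2 fold change was 3.17 ± 0.40 (edgeR adjusted p = 5.85e-06). Ctcf, which insulates chromatin domains, rose by 0.57 ± 0.17 (edgeR adjusted p = 0.0284). It lies on chromosome 8, whose median log2 fold change was 0.46, and the part of that chromosome in its change was not tested. Setdb1, a histone H3 lysine 9 methyltransferase, was called at 0.44 ± 0.14 (edgeR adjusted p = 0.0406), although its experiment 2 level with 5000 cells (56.9 CPM) was near the experiment 1 mean of 55.4 ± 5.90 CPM. Suz12, a Polycomb subunit, changed by -0.59 ± 0.14 (edgeR adjusted p = 0.00559). Dnmt3l, a cofactor of de novo DNA methylation, changed by -0.37 ± 0.11 (edgeR adjusted p = 0.0359).

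Zfp57 and Trim28, which together hold methylation at imprinted control regions, were not called. Zfp57 had 162.0 ± 1.17 and 174.5 ± 12.7 CPM in experiments 1 and 2, a log2 fold change of 0.11 ± 0.12, and Trim28 had -0.01 ± 0.11. The maintenance methyltransferase Dnmt1 (-0.13 ± 0.12) and the de novo enzymes Dnmt3a (0.18 ± 0.16) and Dnmt3b (-0.23 ± 0.18) were not called either (edgeR adjusted p of 0.472 to 0.961 for these 5 genes).

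Of 30 imprinted genes outside the domain, 19 could be tested. By edgeR 2 of them rose and 4 fell in experiment 2 (31.6% called against 12.5% of all genes, median log2 fold change -0.17). Mest, a paternally expressed gene of the hydrolase fold, averaged 0.109 ± 0.155 CPM in experiment 1 and 1.95 ± 0.843 CPM in experiment 2. It was called at 4.11 ± 1.09 (edgeR adjusted p = 0.0131) but had only 0.477 CPM with 5000 cells in experiment 2. Impact, a regulator of translation, rose by 0.93 ± 0.14 (edgeR adjusted p = 4.33e-05). The 4 lower genes were Zrsr1, a splicing factor (-1.11 ± 0.18), Cdkn1c, an inhibitor of the cell cycle (-0.93 ± 0.14), Mcts2 (-0.65 ± 0.13) and Phlda2, a brake on placental growth (-0.36 ± 0.11), with edgeR adjusted p of 8.20e-05 to 0.0346. Calls thus went in both directions outside the domain, and no difference between these genes and the maternal RNAs was tested.

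**Figure D3:**
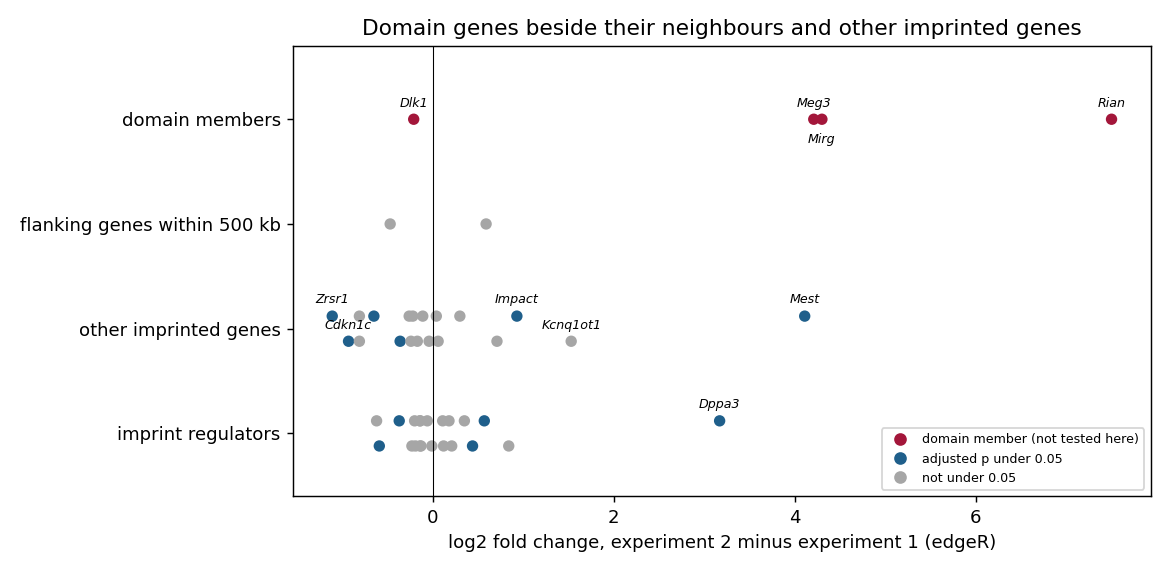
Log2 fold change of experiment 2 minus experiment 1 (x axis) of the 4 domain members, the 2 tested flanking genes, 19 tested imprinted genes elsewhere and 21 imprint regulators (rows; vertical offsets within a row carry no value). Blue points had an adjusted p under 0.05, grey points did not, and the members in red were not tested; outside the domain the highest are Mest at 4.11 and Dppa3 at 3.17, beside Meg3 at 4.21.

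Marker genes of other cell types were set beside the maternal RNAs. The 15 fibroblast markers summed to 41.7 and 43.3 CPM in experiment 1 and to between 16.2 and 19.5 CPM in experiment 2, the opposite order to Meg3, and the collagen Col3a1 and the proteoglycan Lum were at 0 in all 5 libraries. Most of that difference was Thy1, with 31.5 ± 3.28 against 6.91 ± 0.197 CPM. The 10 primitive endoderm markers summed to 58.9 and 67.1 CPM in experiment 1 and to 43.1 to 54.1 CPM in experiment 2, and 3 of the 7 tested were lower in experiment 2 and 0 higher by edgeR (all genes: 6.76% lower, 5.75% higher). The largest part of that sum was the laminin gene Lama1, at 37.4 ± 8.56 and 46.1 ± 2.79 CPM, which was not called, while the median log2 fold change of the 7 was -2.01. The 6 neural markers summed to 19.8 and 22.7 CPM in experiment 1 and 31.4 to 37.4 CPM in experiment 2, in the order of Meg3. The largest part was the tubulin gene Tubb3, at 16.2 ± 2.80 and 22.3 ± 5.59 CPM. Tubb3 (0.47) and Sox1 (0.57) were not called. Both lie on chromosome 8, whose median log2 fold change was 0.46, and the part of that chromosome was not tested. Of the 4 neural markers tested, 1 was called higher, as were 5.75% of all genes; it was the transcription factor Pax6 (0.0728 ± 0.103 against 5.24 ± 2.43 CPM). The 6 mesendoderm markers overlapped between the experiments, at 1.68 to 3.61 and 3.16 to 4.41 CPM. The part of these cell types in the Meg3 difference was not tested.

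The genes whose pattern over the 5 mRNA libraries was most like that of Meg3 were sought among 8192 genes averaging 5 CPM or more, by the root mean square distance between centred log2(CPM + 1) values. The nearest were Eif2s3y (0.15), a Y-linked translation factor, Trh (0.37), a hormone precursor, Dppa3 (0.54), Lst1 (0.57) and Id2 (0.59), an inhibitor of transcription factors. On the same measure Rian stood at 0.37, Mirg at 0.54 and Dlk1 at 1.75 from Meg3. These members were placed without the minimum of 5 CPM. The added 1 CPM shrinks steps that begin near 0. The Rian step between experiments was 3.05 with 10000 cells and 3.09 with 20000, against 7.50 by edgeR. Lst1 had 3.21 and 1.87 CPM in experiment 1 and 15.3 to 15.6 CPM in experiment 2. The likeness is to a pattern that mainly sets experiment 2 above experiment 1, and any gene with a step of that size scores well.

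The low-input ATAC lists held at most 2 peaks in the domain, and none in experiment 1. The low-input lists from 10000 and 20000 cells of experiment 1 had 0 peaks in the window, and so did the experiment 2 list from 5000 cells and the Omni-ATAC list from 5000 cells. The experiment 2 lists from 10000 and 20000 cells had 2 peaks each, the Omni-ATAC list from 10000 cells had 5 and that from 50000 cells had 24. Windows of this length elsewhere in the genome (6472, laid end to end on the autosomes and chromosome X) were often empty too: 34.9% and 27.5% of them in the experiment 1 lists from 10000 and 20000 cells, and 34.4% in the experiment 2 list from 5000 cells. The experiment 2 lists from 10000 and 20000 cells left 25.0% and 16.3% empty, with a median of 2 and 4 peaks per window. Of the Omni-ATAC lists, 48.1%, 20.5% and 4.57% of windows were empty with 5000, 10000 and 50000 cells. Their medians were 1, 3 and 11 peaks per window, so the domain, with 0, 5 and 24, was below the median in the first and above it in the other two. The share of windows with more peaks than the domain was 51.9%, 33.2% and 20.4% in these 3 lists. In the low-input lists it was 65.1% and 72.5% in experiment 1 (10000 and 20000 cells) and 65.6%, 49.8% and 62.6% in experiment 2 (5000, 10000 and 20000 cells). Among these 5 lists the domain was at the median in that of experiment 2 with 10000 cells and below it in the other 4.

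Scaled to the length of the list, the domain had 0.358 peaks per 10000 listed peaks on average in the 3 experiment 2 low-input lists and 0 in the 2 of experiment 1 (exact two-sided permutation test over 10 arrangements, p = 0.4, where 0.1 is the smallest this design allows). At matched cell numbers the experiment 2 lists, with 0.67 (10000 cells) and 0.404 (20000 cells), were both above those of experiment 1 at 0, and the empty experiment 2 list from 5000 cells has no counterpart in experiment 1. Without that list the difference was 0.537 (exact permutation p = 0.333, the smallest p that the remaining 4 lists allow). So few lists cannot settle the difference either way. Without the experiment 2 list from 10000 cells it was 0.202, and with peaks of at least 50 bp only it was 0.131 (exact permutation p = 1.0 for each). In both settings only the experiment 2 list from 20000 cells was above 0. Every arrangement then gives a difference at least as large, so the test could give no other p. The Omni-ATAC lists had 0, 1.60 and 2.51 peaks per 10000 with 5000, 10000 and 50000 cells. The deposited unified list of 18310 regions had 0 in the window.

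**Figure D4:**
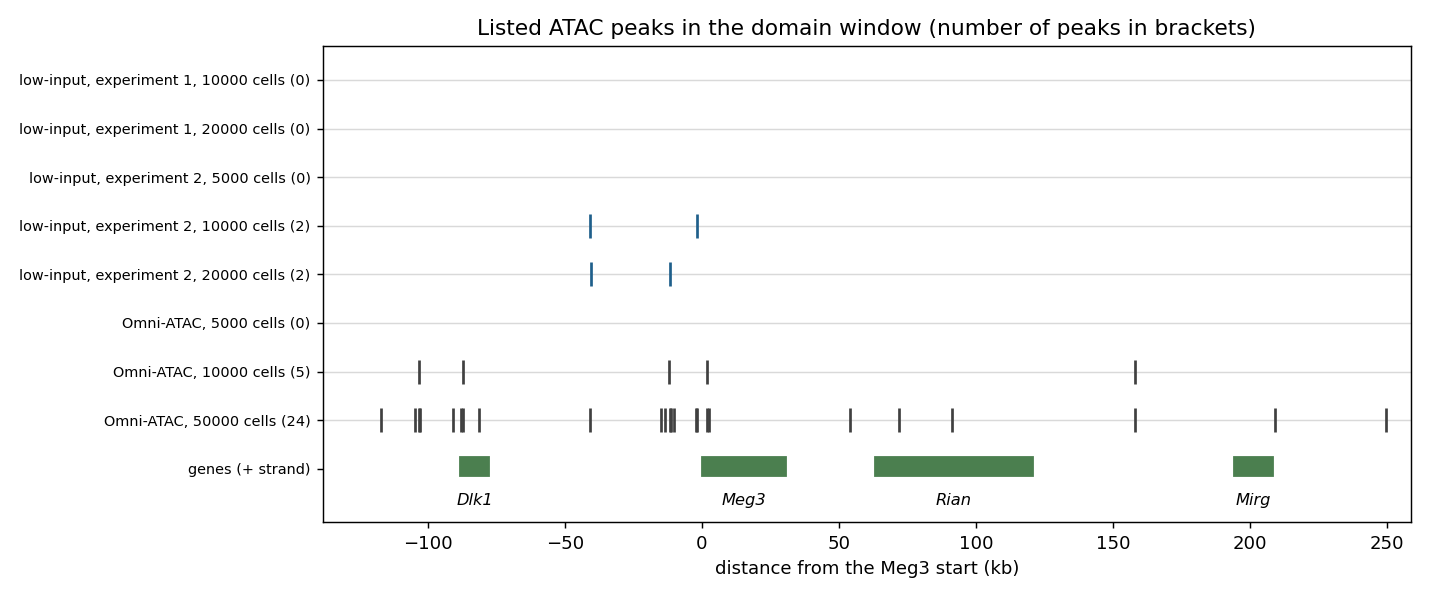
Peaks of the 8 ATAC lists (rows, number in brackets) in the window, against distance from the Meg3 start in kb (x axis); ticks mark peak centres and do not show width, and green bars are gene spans. The experiment 1 rows and the rows from 5000 cells are empty, and the low-input peaks of experiment 2 all lie between Dlk1 and Meg3.

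The peaks merged into 24 sites, of which 8 lay between Dlk1 and Meg3, 3 within Dlk1, 2 each within Meg3 and Rian, 1 between Meg3 and Rian, 1 between Rian and Mirg, 0 within Mirg, and 7 outside, 5 of them on the Dlk1 side. All 4 low-input peaks fell between Dlk1 and Meg3, in the stretch that holds the methylated control region; its borders are not marked in the files. RefSeq annotates the gene Gm34081 over these 8 sites, and Rtl1 over the site between Meg3 and Rian. The site at chr12:109500257-109500374, 40.7 kb before the Meg3 start, was listed in experiment 2 with 10000 cells (9 bp) and 20000 cells (42 bp) and in Omni-ATAC with 50000 cells (118 bp). The site at chr12:109529085-109529284, 11.8 kb before the start, was listed in experiment 2 with 20000 cells (137 bp) and in Omni-ATAC with 10000 (9 bp) and 50000 cells (200 bp). The site at chr12:109539223-109539262, 1.75 kb before the start, was listed in experiment 2 with 10000 cells (9 bp) and in Omni-ATAC with 50000 cells (40 bp). Of the 4 low-input peaks 1 was at least 50 bp wide, and 9 bp, the shortest width in the lists, made up 38.0% and 31.6% of the experiment 2 lists from 10000 and 20000 cells.

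No list had a peak within 1000 bp of the start of Meg3, Rian or Mirg, and 1 of 8, Omni-ATAC with 50000 cells, had one at Dlk1. The start is that given in the count table. For Meg3 the promoter set holds 2 starts, and the other was not examined. Of all 24470 genes, 31.1% and 37.4% had such a peak in the experiment 1 lists from 10000 and 20000 cells, and 31.1%, 40.5% and 50.3% in the experiment 2 lists from 5000, 10000 and 20000 cells. In Omni-ATAC the shares were 18.6%, 41.5% and 61.1% with 5000, 10000 and 50000 cells. Among the 2018 genes within 1.5-fold of the Meg3 level in the experiment 2 mRNA library from 20000 cells, 88.7% had one in the matching ATAC list. The share was 75.4% of 2057 genes with 10000 cells and 60.1% of 2041 genes with 5000 cells, so Meg3 was in the minority of genes of its level that lacked one. In experiment 1, where its level was 1.31 and 1.27 CPM, the shares were 35.4% and 43.6%.

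The nearest peaks lay to either side of the Meg3 start. They were 1.75 kb away in the experiment 2 list from 10000 cells and 11.7 kb in that from 20000 cells, against 146.9 and 350.3 kb in the experiment 1 lists from 20000 and 10000 cells and 406.2 kb in the experiment 2 list from 5000 cells. In Omni-ATAC with 10000 and 50000 cells they were 1.96 and 1.73 kb away. A site within Meg3 at chr12:109542852-109543086, 1.97 kb past the start, was in both of these lists and in no low-input list. For Rian and Mirg the nearest peak in any list was 8.78 and 14.9 kb from the start. Read depth behind the lists is unknown, and the experiment 1 lists were shorter than those of experiment 2 at equal cell number, so depth and experiment cannot be told apart in these counts.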

How the data were processed

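Counts per gene for 5 mRNA libraries came from the authors as deposited whole numbers with gene coordinates (build mm10, per the submitters' processing notes), and ATAC peaks as intervals (start and end, no score), 1 list for each of 8 libraries and a unified list. The submitters' processing notes name cutadapt, Bowtie2 2.1.0, SAMtools 1.3.1, Picard, bedtools 2.24.0, MACS2 2.1.1, STAR 2.5, featureCounts and Subread 1.5.0-p1 without role or threshold. Strand use and the handling of reads shared by genes are not given in the sources used here, so genes that overlap, such as Mirg and the microRNA rows within it, are uncertain.

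CPM were computed from the counts. Genes were tested with edgeR 4.0.16 in R 4.3.3 (TMM, filterByExpr, quasi-likelihood test, Benjamini-Hochberg over all genes, threshold 0.05) on the 4 libraries from 10000 and 20000 cells, tested beforehand on simulated counts. The mRNA library of 5000 cells, alone in its group, stayed outside the fits. The experiment number marks a shared day per the series' design text and pairs libraries; differences between experiments at 10000 and 20000 cells correlated across 11512 genes (r = 0.562). The smallest chi-square per gene between any pair of libraries was 10.7, so none is a duplicate. Of 24470 gene IDs, 24467 matched RefSeq GRCm38.p6, and 67.0% of their starts were equal. Peaks were counted as overlapping from 1 bp. Python 3.11.15 was used.

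The members, the gene lists and the tests were chosen with earlier results of these data known. Named genes are the members, rows in and within 500 kb of the window, up to 6 called genes per list by size of change, and the 5 genes most like Meg3; others were named after their values were seen. Alternatives were RLE size factors, DESeq2 1.42.0, no filter, a 10 CPM minimum on the mean, a block, the 5000-cell library added, other windows, distances and peak widths, and leaving out each library.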

Additional observations from a re-analysis of the deposited data

Results flagged for a closer look

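Dlk1 moved in opposite directions in the comparable pairs of libraries. On the log2(CPM + 1) scale, experiment 2 minus experiment 1 was -1.19 with 10000 cells and 0.74 with 20000 cells, a difference of 1.93. Equally, 20000 minus 10000 cells was -0.79 in experiment 1 and 1.14 in experiment 2, again 1.93 apart. The counting intervals of the libraries overlapped in 0 of these 4 pairs. Each value rests on 1 library, and the difference was not tested.

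Values of opposite sign were also obtained for cell number in Meg3 (-0.03 in experiment 1 and 0.22 in experiment 2, 0.25 apart) and Mirg (-0.27 and 0.17, 0.44 apart), also untested. The counting intervals overlapped in all 4 of these pairs of libraries, so no direction can be read from them.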

How the results depend on the processing

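The rise of Meg3, Rian and Mirg in experiment 2 kept its direction under each alternative that could be run. The alternatives reuse the libraries by which these members were chosen, so this describes the fits and is no test of the rise. Leaving out 1 library at a time gave log2 fold changes of 4.10 to 4.32 for Meg3, 6.70 to 10.00 for Rian and 3.77 to 5.15 for Mirg, and -1.27 to 0.42 for Dlk1, whose sign depended on the library. The count of genes called between experiments, 1567, was 1463 with the 5000-cell library added and 1085 by DESeq2. Without 1 library it ran from 803 (10000 cells, experiment 2) to 1817 (20000 cells, experiment 1), with 869 without the 20000-cell library of experiment 2 and 1018 without the 10000-cell library of experiment 1. Between cell numbers, 0 genes were called by edgeR and by DESeq2, 2 with no filter on low counts and 4 with the experiment as a replicate block, which pairs the libraries. The block reversed Mirg, to -0.17 ± 0.63, and changed no call among the members. Leaving out 1 library leaves the experiments unevenly split between cell numbers, and the log2 fold changes for 20000 against 10000 cells then ran from -3.21 to 3.38 for Meg3, -5.62 to 9.08 for Rian, -4.16 to 2.91 for Mirg and -0.47 to 1.25 for Dlk1, with no member called; a lone library was assumed to vary like the other group. With a mean of at least 10 CPM only Meg3 of the members was tested. The difference in domain peaks per 10000 listed peaks ranged from 0.202 to 0.537 without 1 list. Peaks within 1000 bp of a member's start were found in 1 of 32 combinations of member and list, in 5 at 2500 bp and in 0 with peaks of at least 50 bp only. Depth limits Rian and Mirg in experiment 1, where they had 7 counts or fewer in all, and the depth of the ATAC libraries is unknown.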
